A study of Mus musculus with 3 samples.

Results

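The Slc30 family encodes zinc transporters (ZnT proteins), and Slc30a1 to Slc30a10, 10 of 22350 protein-coding genes, were examined in pancreatic islets exposed to proinflammatory cytokines. For each gene, H3K4me1 enriched regions were collected that overlapped the gene by at least 1 bp or lay within 50 kb of any of its annotated transcriptional start sites (TSS). This gave 48 of the 65709 regions on the list, and no region was shared by 2 members. The family was chosen by its number of regions, their widths and the sequence they cover, with the values of Slc30a8 known, so these values are a description and carry no test. The islets came from CD1 mice aged 8 to 12 weeks per the labels (given as ICR, 8 to 10 weeks, in the study's methods). They were cultured for 4 days with 3 cytokines: IFNγ at 1.6 ng/ml, IL-1β at 0.25 ng/ml and TNFα at 0.16 ng/ml. A single library was sequenced from the pooled DNA of 4 ChIP experiments, so there is no replicate and no error on any value, and depth is unknown. Untreated islets and RNA-seq were not analysed here, and no value below is a response to the cytokines. An islet holds several endocrine cell types as well as vascular and immune cells, and a region cannot be placed in 1 of them.

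Zinc exporters of the Slc30 family move zinc out of the cytosol, either across the plasma membrane or into organelles, whereas importers of the Slc39 (ZIP) family move it the other way. In β-cells, ZnT8, the product of Slc30a8, loads zinc into the secretory granules in which insulin is stored as zinc-bound crystals. H3K4me1 is a histone mark found at active and poised enhancers and beside active promoters. At promoters in use, the nucleosomes next to the TSS often carry the trimethylated form of the same residue instead.

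The sequences that carry the description are shown first. The first is from the widest region of the family, which lies in Slc30a8 (chromosome 15 of mm9, plus strand). Of its stretches of 300 bp outside exons, one with the most matches to letters known from islet transcription factors is given. Among equal stretches, that with the matches nearest its middle was taken. Capitals mark TGTTTAC or TATTTAC (Foxa), TAATTA (homeobox factors such as Pdx1), CAGATGG (E-box, as for Neurod1) and TGCTGAC (Maf), or their complements on the other strand. The sequence lies at chr15:52150401-52150700 in intron 3, 23293 bp from the TSS, and holds 1 Foxa and 1 Maf match.
Slc30a8 intron 3: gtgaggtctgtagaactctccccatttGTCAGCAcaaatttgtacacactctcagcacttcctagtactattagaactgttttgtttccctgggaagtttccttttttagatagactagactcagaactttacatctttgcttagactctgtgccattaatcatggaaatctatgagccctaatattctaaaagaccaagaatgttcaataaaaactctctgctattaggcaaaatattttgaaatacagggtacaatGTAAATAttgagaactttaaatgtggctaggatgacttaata

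The promoters of 4 other members follow as the 200 bp before the RefSeq start, 5′ to 3′ on the gene's strand, with each CpG in capitals. They were taken from RefSeq (GRCm38.p6) and found unchanged in mm9. Of the 10 members, 9 matched the table of RefSeq promoters used here, and the other is Slc30a8. Slc30a1 (chr1:193730460-193730659, plus strand, 19 CpG) and Slc30a4 (chr2:122528400-122528599, minus strand, 35 CpG) are examples where no H3K4me1 enriched region reached these bases. The same held for Slc30a6, Slc30a7 and an upstream entry for Slc30a3. Slc30a5 (chr13:101603383-101603582, minus strand, 16 CpG) and Slc30a10 (chr1:187278527-187278726, plus strand, 6 CpG) are examples where all 200 bases lay inside a region. This was also so for Slc30a2 and the other entry for Slc30a3.
Slc30a1: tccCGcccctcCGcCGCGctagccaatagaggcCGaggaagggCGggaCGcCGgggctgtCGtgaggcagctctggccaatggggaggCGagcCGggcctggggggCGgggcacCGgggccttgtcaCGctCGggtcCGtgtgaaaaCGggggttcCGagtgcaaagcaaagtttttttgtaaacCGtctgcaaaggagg
Slc30a4: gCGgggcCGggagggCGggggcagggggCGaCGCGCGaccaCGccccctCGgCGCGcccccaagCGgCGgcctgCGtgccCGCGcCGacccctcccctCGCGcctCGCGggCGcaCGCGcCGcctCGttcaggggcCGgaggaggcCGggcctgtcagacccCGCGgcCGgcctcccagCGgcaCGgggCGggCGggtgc
Slc30a5: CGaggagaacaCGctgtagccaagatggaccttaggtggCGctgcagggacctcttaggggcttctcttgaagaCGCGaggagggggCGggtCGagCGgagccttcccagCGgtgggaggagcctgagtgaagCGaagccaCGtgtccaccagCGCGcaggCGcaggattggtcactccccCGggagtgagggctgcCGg
Slc30a10: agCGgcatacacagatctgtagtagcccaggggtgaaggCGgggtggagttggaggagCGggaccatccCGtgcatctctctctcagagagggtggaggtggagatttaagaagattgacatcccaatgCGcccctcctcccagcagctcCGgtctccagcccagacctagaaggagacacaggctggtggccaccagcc

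Slc30a8 (chromosome 15, 52127108 to 52167353, plus strand) has 8 exons and 1 annotated TSS, at its first base. It had 7 H3K4me1 enriched regions that together covered 31.0 kb. An enriched region of 2.8 kb, from 52110001 to 52112800, ended 14308 bp upstream of the TSS. The TSS itself was inside a region of 3.0 kb, from 52124401 to 52127400, which reached 292 bp into the gene. Most of the covered sequence was thus not at the promoter but in the gene body and beyond its end.

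Within intron 1, a region of 5.4 kb ran from 52129001 to 52134400. The next, 2.4 kb from 52136001 to 52138400, spanned exon 2 and parts of both neighbouring introns. The gaps from the region over the TSS to that in intron 1, and from there to that over exon 2, were 1600 bp each. The widest region of the family, 11.2 kb from 52142401 to 52153600, began 4000 bp further on and covered exons 3 and 4 with the whole of intron 3 and parts of introns 2 and 4. Only 1.59% of all regions on the list were as wide or wider. A narrow region of 600 bp, from 52164401 to 52165000, lay in intron 6. Past the end of the gene, a region of 5.6 kb ran from 52172201 to 52177800, and its far edge lay 50692 bp from the TSS. Of the 40246 bp of the gene, 49.4% were inside regions.

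**Figure D1:**
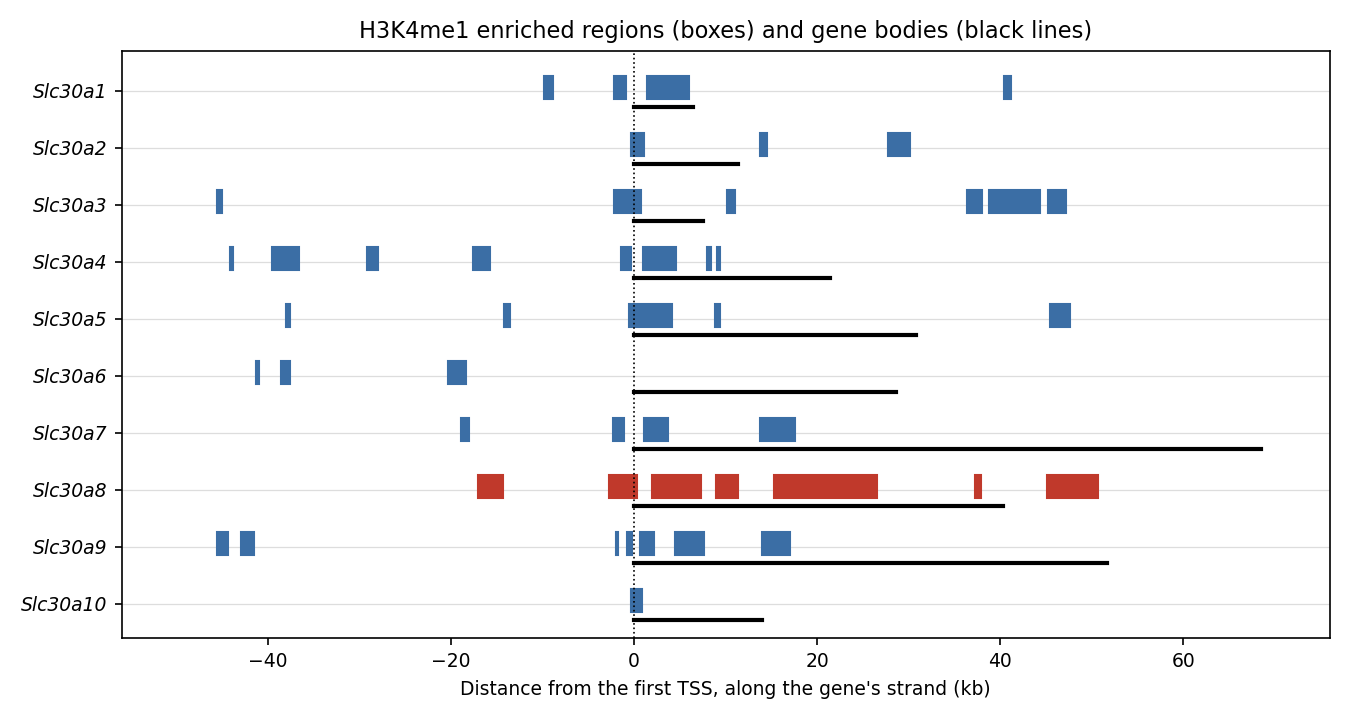
Position of every H3K4me1 enriched region (boxes; Slc30a8 in red) along the 10 Slc30 genes, in kb from the first TSS along the gene's strand; black lines are gene bodies. Slc30a8 has wide boxes from upstream of its TSS to past its end, while the TSS of Slc30a1, Slc30a4, Slc30a7 and Slc30a9 fall in gaps between boxes.

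The sequence around Slc30a8 holds no other protein-coding TSS within 50 kb, and the nearest protein-coding genes are Aard, which ends 250 kb upstream, and Gm10020, which begins 142 kb downstream. In the 432 kb between them were 20 regions covering 56.8 kb, or 13.2% of the sequence. The 7 regions of Slc30a8 are among these, and another 8 lay upstream and 5 downstream of them, none wider than 5600 bp. The farthest region counted lay downstream, began 45093 bp from the TSS and measured 5600 bp. The nearest one not counted lay upstream, 50508 bp from the TSS, and measured 4000 bp. By closest TSS within 100 kb, Slc30a8 had 12 regions covering 43.8 kb. The study also used the closest start within 100 kb, but among UCSC transcripts that it considered expressed. Here the starts are those of all GENCODE M1 genes, noncoding ones included, with no expression filter.

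The number of regions put Slc30a8 first or not depending on how regions were assigned. Within 50 kb, Slc30a4 had more, with 8, Slc30a9 had the same number, 7, and the other 7 members had 1 to 6. Among all protein-coding genes, 35.1% had 7 regions or more. Counting only regions over the gene, Slc30a8 had 5 and no other member more than 3, and by closest TSS it had 12 and no other member more than 5. The median width was 3000 bp at Slc30a8 and 1200 bp over the 41 regions of the other 9 genes, the same as the median of all regions on the list. Of the 7 regions at Slc30a8, 6 were wider than that median, against 20 of 41 at the other genes. Widths ranged from 200 to 5600 bp at the other members, and 6 of their 41 regions exceeded 3000 bp. The share of all regions on the list above 1200 or 3000 bp was not counted. The difference in median width nearly vanished for regions over the gene alone, with 3000 bp at Slc30a8 and 2850 bp as the median of the medians of the other members (Slc30a6 has no such region). Slc30a8 was the 1 member with a region wider than 10 kb, which 10.9% of protein-coding genes had.

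By covered sequence the order of the members was Slc30a8 (31.0 kb), Slc30a3 (13.6 kb), Slc30a4 (11.8 kb), Slc30a9 (11.2 kb), Slc30a5 (8.6 kb), Slc30a7 (8.4 kb), Slc30a1 (7.8 kb), Slc30a2 (4.6 kb), Slc30a6 (3.4 kb) and Slc30a10 (1.2 kb). Slc30a8 covered 2.28 times as much as the next member and 3.69 times the median of the other 9. It held 14.6% of the family's regions and 30.5% of their covered length. Without its widest region it would still have covered 19.8 kb, more than any other member. Slc30a5 and Slc30a7 differed by a single bin of the 200 bp grid on which region edges lie, so their order is not resolved.

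**Figure D2:**
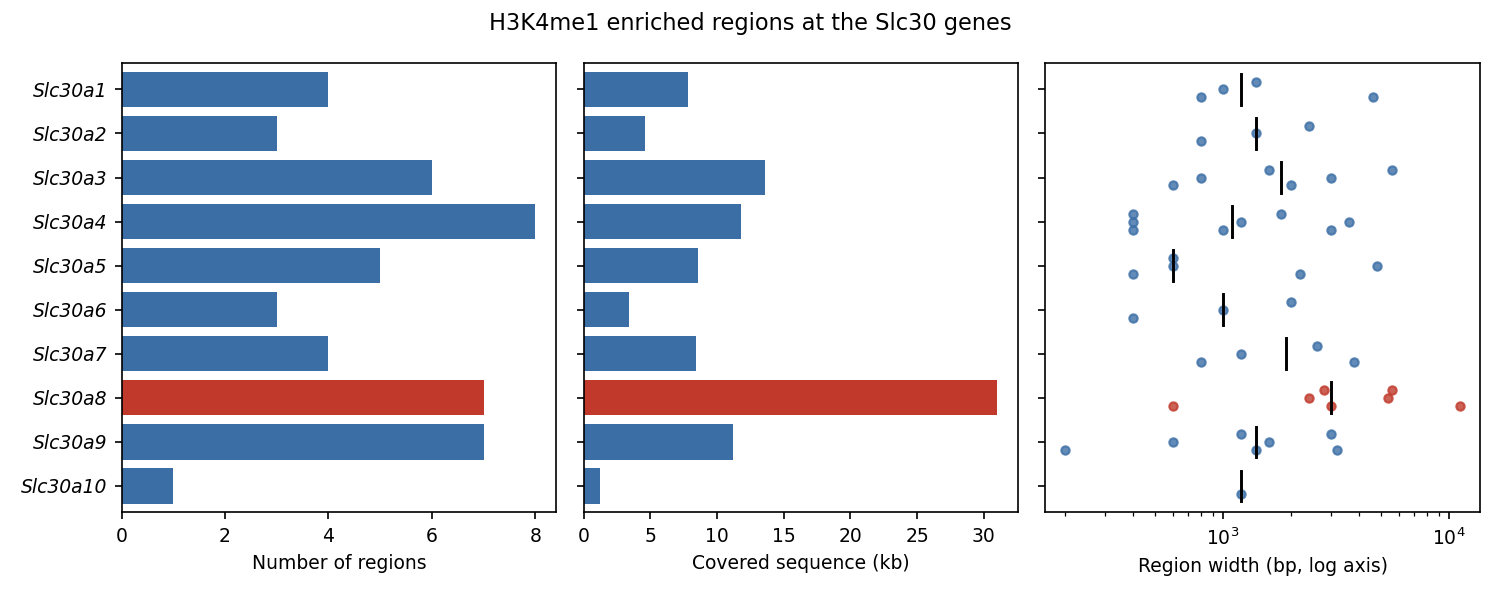
Number of H3K4me1 enriched regions, covered sequence in kb and width of each region in bp (log axis; points are regions, black ticks medians) for the 10 Slc30 genes, with Slc30a8 in red. Slc30a8 has 7 regions, as does Slc30a9, but covers 31.0 kb against 1.2 to 13.6 kb at the other members.

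Since members differ in length, the covered share of the searched sequence was compared as well. It was 30.3% at Slc30a8, 13.6% at Slc30a3 and 11.8% at Slc30a4, and the median of the other 9 was 7.76%. Among protein-coding genes, 9.46% covered at least as many kb as Slc30a8 and 4.95% at least its share of the searched sequence. The median protein-coding gene had 5 regions covering 8.4 kb and 6.86% of its searched sequence. All 10 members had at least 1 region, as did 82.3% of protein-coding genes. More regions than that median of 5 were found at 4 of the 10 members and at 43.5% of protein-coding genes, more covered kb than the median at 5 of 10, and a larger covered share than the median at 7 of 10.

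**Figure D3:**
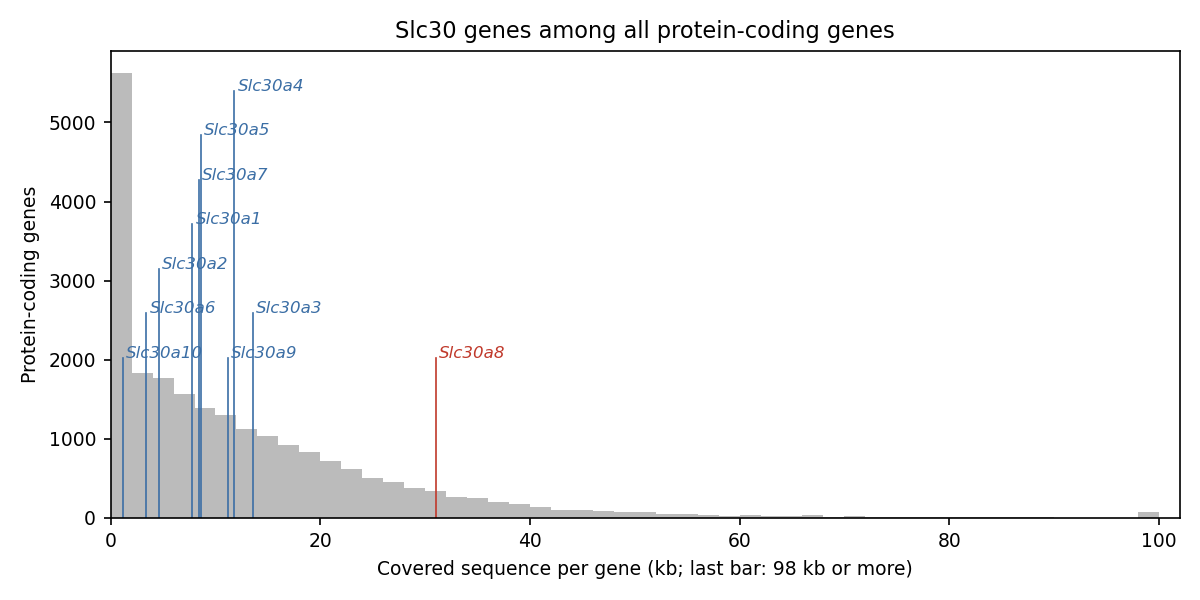
Histogram of the sequence covered by H3K4me1 enriched regions per protein-coding gene (x axis in kb, 2 kb bars, the last bar holding all higher values; y axis, number of genes), with each Slc30 gene marked by a line whose height has no meaning. Slc30a8, at 31.0 kb, lies in the tail that holds 9.46% of genes, and the other 9 lie between 1.2 and 13.6 kb.

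The other members are taken by the place where their transporter acts. Slc30a1 (chromosome 1, 193730646 to 193737126, plus strand) encodes the exporter of the plasma membrane. Its TSS was in a gap of 2200 bp between a region of 1.4 kb upstream, ending 846 bp before it, and one of 4.6 kb from 193732001 to 193736600. The latter spanned part of intron 1 and of exon 2, and 71% of this short gene was inside it. The remaining regions, of 1000 and 800 bp, lay at -8846 and 40355 bp from the TSS. 1700034H15Rik, transcribed from the opposite strand, overlaps the start of Slc30a1. Slc30a10, which transports manganese and lies on the same chromosome (187278727 to 187292641, plus strand), had the fewest regions. Its TSS was inside its single region (187278401 to 187279600), and the next regions were 75327 bp upstream and 103274 bp downstream.

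Slc30a2, Slc30a3 and Slc30a4 encode transporters of vesicles, and Slc30a3 is best known from synaptic vesicles of neurons. At Slc30a2 (chromosome 4, 133899096 to 133910399, plus strand), a region of 1.4 kb covered the TSS and 2 others lay past the end of the gene, 1 of them over the TSS of Extl1. At Slc30a3 (chromosome 5, 31388479 to 31395988, minus strand), a region of 3.0 kb covered the TSS, but it held that of Gm9924 too. Of its other 5 regions 3 lay over TSS of other genes: Slc5a6, 0610007C21Rik, Cad or Ucn. In this gene-dense stretch 7 other protein-coding genes have a TSS in the searched sequence, and by closest TSS Slc30a3 was assigned 0 regions. The second largest covered length in the family was thus mostly in regions that hold the TSS of another gene.

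At Slc30a4 (chromosome 2, 122506969 to 122528399, minus strand), the TSS was again in a gap, here of 1400 bp. A region of 1.0 kb ended 402 bp upstream of it, and one of 3.6 kb began 999 bp downstream in intron 1. Smaller regions of 400 bp lay at 7999 and 8999 bp inside the gene, and 4 more lay upstream, from -15802 to -44201 bp. By closest TSS, Slc30a4 was assigned 0 regions as well.

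Slc30a5, Slc30a6 and Slc30a7 encode transporters of the early secretory pathway, and the products of Slc30a5 and Slc30a6 work as a pair. Their regions differed in kind. Slc30a5 (chromosome 13, 101572604 to 101603382, minus strand) had 5 regions, of which that over the TSS measured 4.8 kb and reached 4181 bp into the gene. Another, of 2.2 kb past the end of the gene, held a TSS of Ccnb1. Slc30a6 (chromosome 17, 74794972 to 74823569, plus strand) had no region over the gene: its 3 regions lay upstream, the nearest 18372 bp from the TSS, and downstream the list was empty for 93429 bp. Slc30a7 (chromosome 3, 115641891 to 115710324, minus strand) had its TSS in a gap of 2200 bp, with regions 1077 bp upstream and 1124 bp downstream. A further region of 3.8 kb in this gene spanned exons 3 to 5. Extl2, transcribed from the opposite strand, also has a TSS in the searched sequence.

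Slc30a9 (chromosome 5, 67698194 to 67749804, plus strand) encodes a transporter of mitochondria. It had 7 regions, the same number as Slc30a8, but they were 200 to 3200 bp wide and covered 11.2 kb. Its first TSS was in the narrowest gap of the family, 800 bp, between a region ending 194 bp upstream and one beginning 607 bp downstream. The next regions, of 3.2 and 3.0 kb, lay in introns 1 and 2.

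Over the family, a TSS was inside a region at 5 of 10 members (Slc30a2, Slc30a3, Slc30a5, Slc30a8 and Slc30a10), and at 39.1% of protein-coding genes. The TSS of Slc30a1, Slc30a4, Slc30a7 and Slc30a9 were outside regions but had one on each side within 2 kb, which was the case for the first TSS of 9.9% of protein-coding genes. Slc30a6 had neither. Base composition, which the choice of members did not use, was set beside this. In the 500 bp around the first TSS, the ratio of observed to expected CpG was 0.816 to 0.992 at the 4 flanked genes and 0.313 to 0.916 at the 5 with the TSS inside a region. Slc30a8 had the lowest ratio of the family, 0.313, and the lowest GC content, 42.3%, against 58.5% to 80.8% at the other 9.

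With a ratio of at least 0.6 and a GC content of at least 55% as the limit, 9943 protein-coding genes had a CpG-rich and 12407 a CpG-poor start. A region held the first TSS of 45.6% of the CpG-rich and 19.5% of the CpG-poor genes. A TSS in a gap with regions on both sides was found at 19.4% of the CpG-rich and 2.31% of the CpG-poor genes. All 4 flanked members were CpG-rich. Slc30a8, Slc30a3 and Slc30a10 were CpG-poor by this limit, although Slc30a3 (0.58) was just below it, and their TSS were inside regions.

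**Figure D4:**
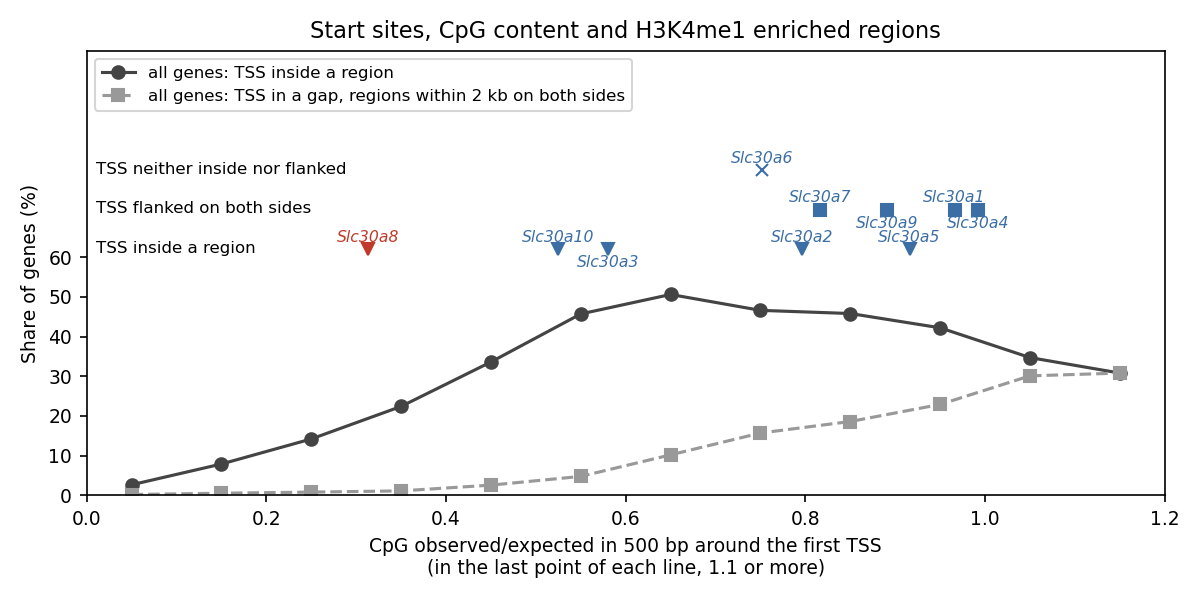
Ratio of observed to expected CpG in 500 bp around the first TSS (x axis) and share of protein-coding genes in percent (y axis) whose TSS is inside an H3K4me1 enriched region (circles) or in a gap with regions within 2 kb on both sides (squares), with the 10 Slc30 genes placed above by the same classes. The flanked class is rare among genes of low CpG ratio and holds 4 members at 0.816 to 0.992, while Slc30a8 has its TSS inside a region at 0.313.

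The low CpG content of Slc30a8 was not limited to its start. Its 7 regions had a GC content of 38.3% to 40.7% and a CpG ratio of 0.0949 to 0.193. The medians were 38.9% and 0.158, against 42.5% and 0.283 for the regions of the other 9 members and 45.9% and 0.226 for all regions. Regions of other members had values as low: the CpG ratio was 0.136 to 0.24 at the 3 regions of Slc30a6, and the GC content was 37.7% to 42.4% at the 4 regions of Slc30a7. Regions over the TSS of other members were richer in GC, from 45.8% at Slc30a5 to 65.2% at Slc30a10, while that over the TSS of Slc30a8 had 40.1%. The composition thus varied more between the TSS regions of different members than among the 7 regions of Slc30a8.

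Letters known from factors of islets, cytokine signaling and zinc were counted on both strands, each motif on its own, so that matches to different motifs can overlap. The Slc30a8 regions held 22 matches to TAATTA, or 0.71 per kb, against 0.312 per kb in the regions of the other 9 members and 0.32 in all regions. The parts of the Slc30a8 gene outside regions held 0.639 per kb, so the letters were about as frequent outside the regions as inside. TAATTA has no G or C, and the GC content of these regions is low, as given above. Its part in these counts was not tested. Foxa letters were found 12 times in the Slc30a8 regions (0.387 per kb), below the 0.524 per kb of the other members and the 0.59 per kb of the gene outside regions and near the 0.352 per kb of all regions. CAGATGG matched 5 times (0.161 per kb, against 0.156 in the regions of the other members and 0.263 in all regions), and TGCTGAC 6 times (0.194 per kb, against 0.17 and 0.18). In the gene outside regions both were less frequent, with 2 matches to CAGATGG (0.0983 per kb) and 1 to TGCTGAC (0.0491 per kb).

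For cytokine signaling, TTCNNNGAA, the GAS site of Stat factors activated by IFNγ, matched 14 times in the Slc30a8 regions (0.452 per kb, against 0.425 in the regions of the other members, 0.332 in all regions and 0.295 in the gene outside regions). The interferon-stimulated response element matched 8 times (0.258 per kb, against 0.212, 0.166 and 0.0491 in the same order, the last from 1 match). The κB motif, bound by the factor downstream of IL-1β and TNFα, matched 2 times, or 0.0645 per kb, against 0.0992, 0.212 and 0.295. These counts are too small to order, and a match is not a site in use. The metal response element (TGCACNC or TGCGCNC), the letters bound by the zinc sensor Mtf1, was found at 0.355 per kb at Slc30a8 and at 0.907 and 0.791 per kb in the regions of the other members and in all regions. The Slc30a8 gene outside regions held 0.393 per kb, so the low value was not limited to the regions. The Slc30a8 values rest on 11 matches inside and 8 outside regions. Of the 11, 5 were in the region of 3.0 kb over the TSS, so the low value did not hold for each region. The part of the low GC content in these counts was not tested. In the 200 bp before the RefSeq start, these letters were present once in each of the promoters of Slc30a1, Slc30a4, Slc30a5 and Slc30a10 shown above, in that of Slc30a2 and in 1 of 2 entries for Slc30a3, and were not in those of Slc30a6, Slc30a7 and Slc30a9. They were present in 18.2% of the 32851 promoters of the table, which were not matched for base composition.

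**Figure D5:**
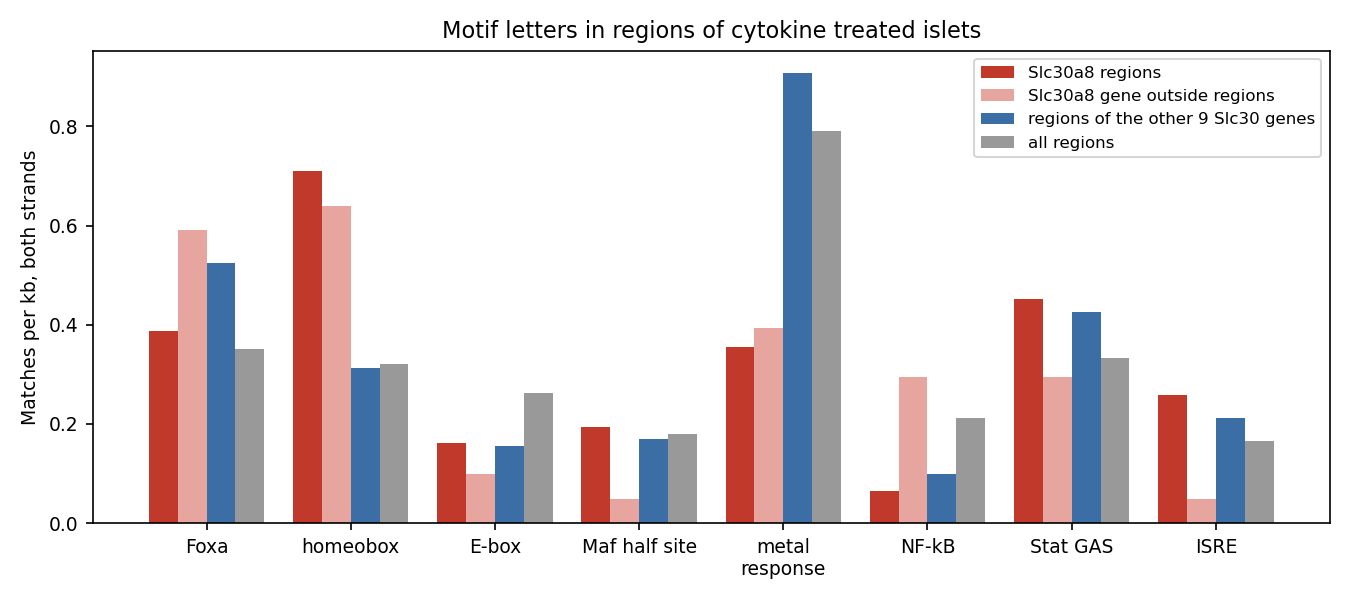
Matches per kb on both strands (y axis) to 8 motifs (x axis) in the Slc30a8 regions, the Slc30a8 gene outside regions, the regions of the other 9 Slc30 genes and all H3K4me1 enriched regions. TAATTA (homeobox) letters are at 0.71 per kb in Slc30a8 regions and 0.639 in the rest of the gene, and metal response letters are lower at Slc30a8, inside and outside its regions, than in all regions.

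The Slc39 importers, which bring zinc into the cytosol, all had at least 1 region, as did 82.3% of protein-coding genes. Medians of the importers were 6 regions and 12.1 kb covered. A TSS was inside a region at 7 of 14, beside 39.1% of protein-coding genes. Slc39a11, a very long gene, had the most with 19 regions covering 61.2 kb, and was the 1 importer above Slc30a8 in covered kb. As a share of the searched sequence it had 13.4%, less than Slc30a8. Slc39a9 (29.2 kb, 29.2% of the searched sequence) and Slc39a3 (29.6 kb, 27.2%) were close to Slc30a8. Slc39a14, an importer that responds to inflammation in liver, had 6 regions covering 18.6 kb. Slc39a12 had 1 region of 1.2 kb, which only touched the edge of its searched sequence.

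The metallothioneins bind zinc in the cytosol, and Mtf1 turns on their genes when zinc is high. All 5 of these genes lay above the median protein-coding gene in regions and in covered kb, and a TSS was inside a region at 4 of 5, the exception being Mt4. Among protein-coding genes, 43.5% had more regions than the median and 39.1% a TSS inside a region. The covered kb were 29.0 at Mt1, 23.0 at Mt2, 19.6 at Mt3, 16.8 at Mt4 and 26.6 at Mtf1. Mt1 to Mt4 lie side by side on chromosome 8 and share regions, so that the list of 5 rested on 22 distinct regions. No gene of this list reached the 31.0 kb of Slc30a8.

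Defining markers of islet endocrine cells were examined in the same way. All 8 (Ins1, Ins2, Gcg, Sst, Pdx1, Nkx6-1, Neurod1 and Iapp) had at least 1 region, as did 82.3% of protein-coding genes. Their least covered length, 2.2 kb, was at Gcg and Sst. These 8 had a median of 4.5 regions, beside 5 at the median protein-coding gene. A TSS was inside a region at 1 of the 8, Ins2, and at 39.1% of protein-coding genes. Slc30a8 covered less than Neurod1, which had 11 regions of up to 21800 bp, and Pdx1 (38.6 kb), and more than the other 6. The 4 acinar markers had 0.4 to 13.6 kb and the 4 immune markers 0 to 7.6 kb, with none at Itgam. Of the endothelial markers, Pecam1 had 43.2 kb and Cdh5 none. Since these lists are short and regions have no height, the share of any cell type in a region of the Slc30 genes was not tested.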

How the data were processed

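H3K4me1 ChIP-seq of cytokine treated islets was 1 of 3 samples in the series and the only one with a file used here. The authors mapped reads to mm9 with Bowtie2 (version 2.2.1 in the submitters' processing notes), identified enriched regions with ChromHMM and deposited chromosome, start and end of each region, with no count, score or p-value. The version and settings of ChromHMM are not given in the sources used here. Whether the list precedes a filter on low-signal loci in the methods is not stated there. Edges fall on a 200 bp grid, depth is unknown, and an absent region can reflect depth or the authors' threshold. Intervals that need depth are therefore not given.

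Positions were counted from 1 and compared with GENCODE M1 genes of the same build (chromosomes 1 to 19 and X). Covered kb sums whole regions, and the covered share counts only bases inside the searched sequence (the gene plus 50 kb on each side of each TSS). The members and gene lists were chosen with earlier results of these data known. Genes were named by a fixed rule: all Slc30 genes, extremes of the Slc39 and metallothionein lists, up to 4 others of a list, and neighbours whose TSS is inside a counted region. Aard, Gm10020, 1700034H15Rik and Extl2 were named after their positions were seen, and Slc39a9, Slc39a3, Slc39a14 and the markers after their values. The CpG limits and the base composition comparison were also chosen after the regions were seen. The 11 alternatives varied the least width, merging, the search limit, the TSS used and the way a region was assigned to a gene. With simulated regions, the steps for overlap, TSS, covered length and closest TSS each recovered all 500 planted cases. A search for TGTTTAC (Foxa) in simulated sequence recovered all 500 as well. The other motifs, base composition, merging, midpoints and calls of a flanked TSS were not checked in this way. Python 3.11.15, numpy 2.4.6, scipy 1.17.1 and matplotlib 3.10.9 were used.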

Additional observations from a re-analysis of the deposited data

How the results depend on the processing

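Over 14 results, 117 of 144 values under an alternative stayed within a factor of 1.5 of the reported value, or within the 95% exact binomial interval for a share of genes. Some of these could not change, such as the counts of genes with a TSS inside a region under other search limits. Slc30a8 ranked first of the 10 members by covered kb under all 11 alternatives. No paired analysis was possible because the condition has a single library, and none could be left out in turn. Regions without a height cannot be ranked by strength, and the widths rest on the grid of 200 bp.

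Widening the limit to 100 kb gave 12 regions at Slc30a8, medians of 10 regions and 15 kb at the other 9 members and 11.5 regions at the Slc39 genes. A wider search finds more regions by construction. At that limit 7 members were above the median gene, whose own count comes from the same wider search. With gene overlap only, the other 9 had medians of 1 region, 4.4 kb and 2850 bp in width (Slc30a6 has none), against 5 regions and 3000 bp at Slc30a8. The Slc39 median was then 1 region, and 49.4% of the Slc30a8 sequence was covered. By closest TSS within 100 kb, Slc30a8 had 12 regions, the other 9 medians of 1 region and 1.4 kb (2 of them with 0), and the Slc39 genes 1.5. The Slc39 median was 3.5 with regions of at least 1000 bp and 3.5 within 20 kb. Merging regions left 2 members above the median gene. The share of protein-coding genes with at least the covered kb of Slc30a8 (9.46%) was 8.85% with regions of at least 1000 bp, 9.97% merged, 5.52% within 20 kb, 14.1% within 100 kb, 4.63% with gene overlap only, 8.61% with TSS windows only, 8.65% with protein-coding TSS, 8.24% with the first TSS, 8.26% by midpoint and 1.05% by closest TSS. Unless stated, the cause was not tested.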
